A study of Mus musculus with 4 samples.

Results

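The microRNA genes mir-183, mir-96 and mir-182 form 1 cluster and were followed in mouse embryonic stem cells and in embryoid bodies made from them. They were the 3 entries of these names among the 626 microRNA entries of the deposited table, chosen by name with earlier results of these data known. All 3 were less abundant in the embryoid bodies, and by unequal amounts: mir-182, the most abundant of them in stem cells, was 5.93-fold lower, mir-96 was 3.06-fold lower and mir-183 was 2.10-fold lower. In embryoid bodies mir-183 had the most reads of the cluster, and in stem cells mir-182 did.

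The embryoid bodies (EBs) were taken at day 8 and are aggregates of differentiating cells, grown without leukemia inhibitory factor (LIF) in Iscove's medium with 20% serum. Drops of 1000 cells hung for 2 days, and the aggregates then floated free for another 6 days. They were compared with embryonic stem cells (ESCs) at day 0, kept undifferentiated with 100 U/ml LIF on gelatin in Glasgow medium with 10% serum. All samples came from the feeder-independent line CGR8, labelled with donor strain 129P2/OlaHsd, background strain C57BL/6 and passages 5 to 13, and in the labels the groups differ by culture and day alone. Small RNA was sequenced on an Ion Torrent PGM instrument, and the labels name 2 samples in each group. An EB holds a mixture of cell types, and in such bulk RNA fewer cells of a type and less of a microRNA per cell cannot be told apart.

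Total microRNA counts were 139104 and 139360 in the EB columns and 557250 and 557643 in the ESC columns, so the EB library was 4.0 times shallower. The columns of each group differed by less than sampling noise, with a chi-square per degree of freedom of 0.284 for EBs and 0.235 for ESCs, so the mean of the 2 columns stood for 1 sample in each group. With 1 library on each side there was no replicate check, and no p-value is given. Intervals in brackets are exact 95% intervals that cover counting error only and take the scaling between libraries as exact. As a check of the labels, the miR-302 and miR-367 entries, known from epiblast-stage cells, took 6.53% of EB counts and 0.0341% of ESC counts, whereas 6 stem cell entries of the miR-290 to miR-295 cluster (mir-290a, mir-291a, mir-292a, mir-293, mir-294 and mir-295) took 52.0% of EB counts and 53.0% of ESC counts. That near-equal sum covers opposite directions. With the TMM scaling used throughout, mir-294 was at least 2-fold higher and 4 of the 6 at least 2-fold lower, beside 33.5% and 30.2% of the 367 measured entries. In the authors' normalized values 3 of the 6 were at least 2-fold lower, beside 31.6% of measured entries. The entry mir-291b of the same cluster, not among the 6, was 3.91-fold lower with TMM.

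The 3 genes form a cluster that is transcribed as a single precursor RNA and cut into hairpins by Drosha and into mature microRNAs by Dicer. The mature microRNAs load into Argonaute and pair with messenger RNAs mainly through the seed, bases 2 to 8 from the 5′ end. The cluster is best known from sensory cells such as photoreceptors and inner ear hair cells, where seed mutations of miR-96 cause hearing loss in mouse and in human. It is also found in epithelial and stem cells, and the transcription factor FOXO1 is a known target of miR-96 and miR-182.

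The mature 5′ arms are shown because the seeds set the cluster's members apart. Seeds are in capitals, and the sequences are those of RefSeq on GRCm38.p6.
miR-183-5p: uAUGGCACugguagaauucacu
miR-96-5p: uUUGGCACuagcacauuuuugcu
miR-182-5p: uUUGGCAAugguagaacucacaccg
Counted from 1 at the 5′ end, the seed of miR-182-5p differed from that of miR-96-5p by C8A, and the seed of miR-183-5p differed from that of miR-96-5p by U2A. All 3 arms shared UGGCA at bases 3 to 7, a stretch found at that place in 5 of the 1738 mature microRNAs of the reference table. Over the first 22 bases miR-182-5p and miR-183-5p were identical at 18, whereas miR-96-5p matched miR-183-5p at 13 of 22 and miR-182-5p at 12 of 23. By family resemblance along the whole arm, miR-182-5p and miR-183-5p were thus the closer pair, although their seeds differed at 2 bases, U2A and A8C.

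The hairpins are given in the order of transcription, with both mature arms in capitals.
mir-183: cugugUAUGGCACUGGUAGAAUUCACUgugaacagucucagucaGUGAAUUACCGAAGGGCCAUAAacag
mir-96: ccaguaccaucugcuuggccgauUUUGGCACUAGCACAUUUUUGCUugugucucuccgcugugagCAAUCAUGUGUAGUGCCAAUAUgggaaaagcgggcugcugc
mir-182: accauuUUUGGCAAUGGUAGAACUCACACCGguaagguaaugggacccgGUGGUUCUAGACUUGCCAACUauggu
The table names entries by hairpin, so the arms could not be compared. How reads of the 2 arms were assigned to an entry is not stated.

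In the GENCODE annotation (GRCm38) the hairpins lie on the minus strand of chromosome 6. Mir183 spans 30169668 to 30169737, Mir96 spans 30169446 to 30169551 and Mir182 spans 30165918 to 30165992. No other annotated gene overlaps any of them, so they lie between genes. Only 116 bases separate mir-183 from mir-96, whereas 3453 bases separate mir-96 from mir-182. The nearest annotated gene on the mir-183 side is the long noncoding RNA Rncr4, on the plus strand 3155 bases away, and the nearest protein-coding gene on the mir-182 side is Nrf1, a regulator of respiratory chain genes, whose end is 12459 bases away.

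The entry mir-182 had 662 counts in both EB columns, against 12900 and 12920 counts in the ESC columns. Among all entries it held rank 29 in the EB library and rank 7 in the ESC library. Scaled to library totals, its level was 4755 CPM, the count divided by the library total and put on a common total, in EBs and 23159 CPM in ESCs. Libraries were then put on 1 scale by TMM, the trimmed mean of M-values, a factor that leaves out entries with extreme ratios. On that scale mir-182 was 5.93-fold lower in the EB library (5.48 to 6.42). Both EB columns lay far below both ESC columns.

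The entry mir-183 had 741 and 747 counts in the EB columns, against 5130 and 5132 counts in the ESC columns. Its level was 5344 CPM in EBs and 9204 CPM in ESCs, with rank 27 in the EB library and rank 17 in the ESC library. It was 2.10-fold lower in the EB library (1.94 to 2.27), the smallest difference of the 3. The interval includes a 2-fold difference, so mir-183 lay at the boundary used below for calling an entry lower.

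The entry mir-96 had 188 and 192 counts in the EB columns, against 1913 and 1909 counts in the ESC columns. It was the scarcest of the 3 in both libraries, at 1365 CPM in EBs and 3428 CPM in ESCs, with rank 68 in the EB library and rank 46 in the ESC library. It was 3.06-fold lower in the EB library (2.63 to 3.57). The counts of mir-96 lie in a block of the table in which original counts sit 1 row too low. Its row as deposited shows 11 and 13 EB counts and 56 and 60 ESC counts, which belong to another entry. Within that block counts and the authors' normalized values had rank correlations of 0.365 to 0.554 as the table stands, and of 0.995 to 0.998 once each count was shifted up by 1 row, as was done here.

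**Figure D1:**
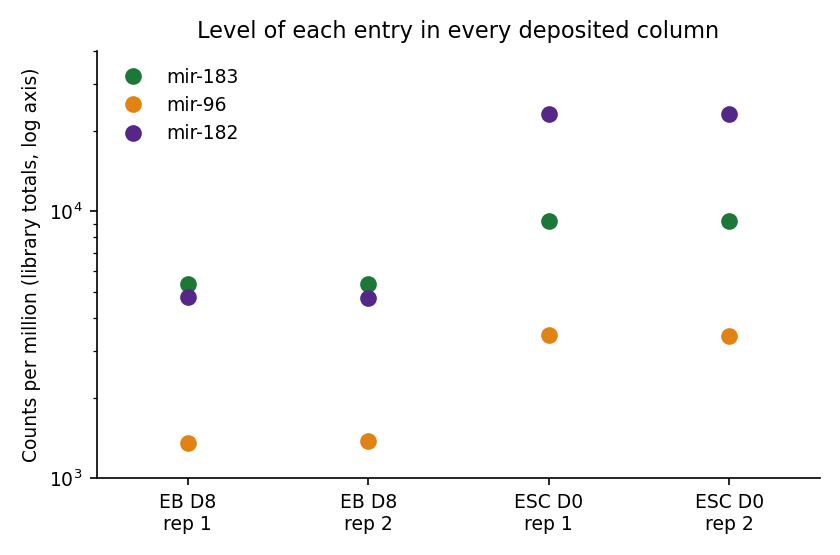
Level of each entry in CPM (counts scaled to a common library total, log axis) in the EB D8 and ESC D0 columns, 1 point per entry and column. In the EB columns mir-183 stands just above mir-182 at 5344 against 4755 CPM on average, and in the ESC columns mir-182 stands highest at 23159 CPM.

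Summed over the 3 entries, the cluster had 1591 and 1601 counts in the EB columns, against 19943 and 19961 counts in the ESC columns. It took 1.15% of EB counts (1.09 to 1.20) and 3.58% of ESC counts (3.53 to 3.63). The TMM-scaled sum was 3.80-fold lower in the EB library (3.61 to 4.0). An entry was counted as lower when its scaled counts differed at least 2-fold, and all 3 entries met this mark, where 30.2% of the 367 measured entries did. Ordered from the lowest fold, mir-182 was at place 28 of the 367, mir-96 at 73 and mir-183 at 107. All 3 entries were far above a floor of 3 counts, so depth did not limit their detection in either library.

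The makeup of the cluster differed between the libraries. In EBs mir-183 held 46.6% of the cluster's counts (44.1 to 49.1), against 25.7% in ESCs (25.1 to 26.3). The share of mir-182 was 41.5% in EBs (39.0 to 43.9) and 64.7% in ESCs (64.0 to 65.4), and that of mir-96 was 11.9% (10.4 to 13.6) in EBs and 9.58% (9.17 to 9.99) in ESCs. The mature arms are 21 to 25 bases long, so no length scaling was applied. The shares are of reads, PCR copies included, and were not calibrated to molecules.

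The ratio of mir-182 to mir-183 was 0.893 and 0.886 in the EB columns, against 2.51 and 2.52 in the ESC columns. It was thus below 1 in both EB columns and above 1 in both ESC columns, and 2.83-fold lower in EBs (2.53 to 3.16). Ratios taken within a library do not depend on TMM or any other scaling by 1 factor per library. The turn in order was narrow on the EB side, where mir-182 made up 47.1% of the 2 entries together (44.4 to 49.7), but wide on the ESC side, where it made up 71.6% (70.9 to 72.2).

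Set against mir-96, the ratio of mir-182 was 3.48 in EBs and 6.76 in ESCs, 1.94-fold lower in EBs (1.63 to 2.30). The ratio of mir-96 to mir-183 was 0.255 in EBs and 0.372 in ESCs, 1.46-fold lower in EBs (1.23 to 1.73). All 3 pairs therefore differed beyond counting error between these libraries. In the authors' normalized values the ratio of mir-96 to mir-183 was 0.324 in both EB columns and 0.342 in both ESC columns, so the difference between mir-96 and mir-183 depended on that normalization. The ratio of mir-182 to mir-183 in those values was 0.936 and 0.886 in the EB columns and 2.39 in both ESC columns, so its turn did not.

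**Figure D2:**
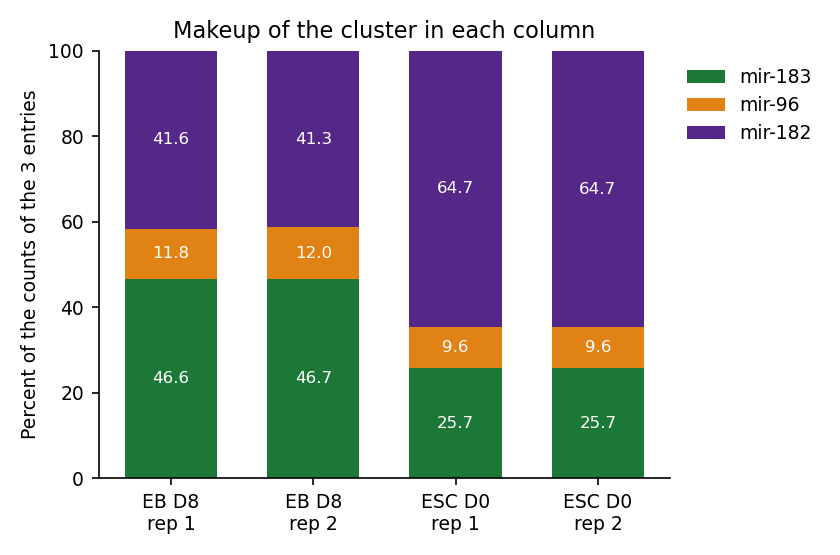
Percent of the summed counts of the 3 entries held by each, 1 bar for each EB D8 and ESC D0 column. The share of mir-182 is 41.5% on average in EBs and 64.7% in ESCs, and that of mir-183 is 46.6% in EBs and 25.7% in ESCs.

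The folds followed the order of the hairpins on the transcript. Measured from the 5′ end of the mir-183 hairpin, mir-96 starts 186 bases and mir-182 starts 3745 bases downstream, and the log2 folds were -1.07 (-1.18 to -0.96) for mir-183, -1.61 (-1.83 to -1.40) for mir-96 and -2.57 (-2.68 to -2.45) for mir-182. In the authors' normalized values the log2 folds in the same order were -0.60, -0.68 and -1.99, so mir-183 and mir-96 were nearly equal there. With so few entries only a few orders are possible. Whether position had a part in the order of the folds was not tested.

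Other microRNA genes that lie close together were used to see how far such folds usually spread. Hairpins on 1 strand with gaps of at most 10 kb were joined, which gave 39 groups with at least 2 measured entries of different mature sequence. The range of log2 folds within the miR-183 cluster was 1.50, and 15 of the 39 groups had a wider one. Groups with more entries can spread more, so groups of like size were also compared. Of the 7 groups with 3 measured entries, this one included, 2 had a wider range and the median was 1.17. The wider ones were that of mir-25, mir-93 and mir-106b, with a range of 2.84, and that of mir-99b, let-7e and mir-125a, with a range of 2.16. In the group of mir-23b, mir-27b and mir-24-1, where all 3 entries were lower too, the range was 0.89. In that of mir-23a, mir-27a and mir-24-2, also all lower, it was 0.73. Unequal folds within a cluster were thus common in this table, although counting error also widens the range of groups with few counts. The widest range, 5.13 for mir-221 and mir-222, rests on a mean of 1 EB count for mir-221.

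**Figure D3:**
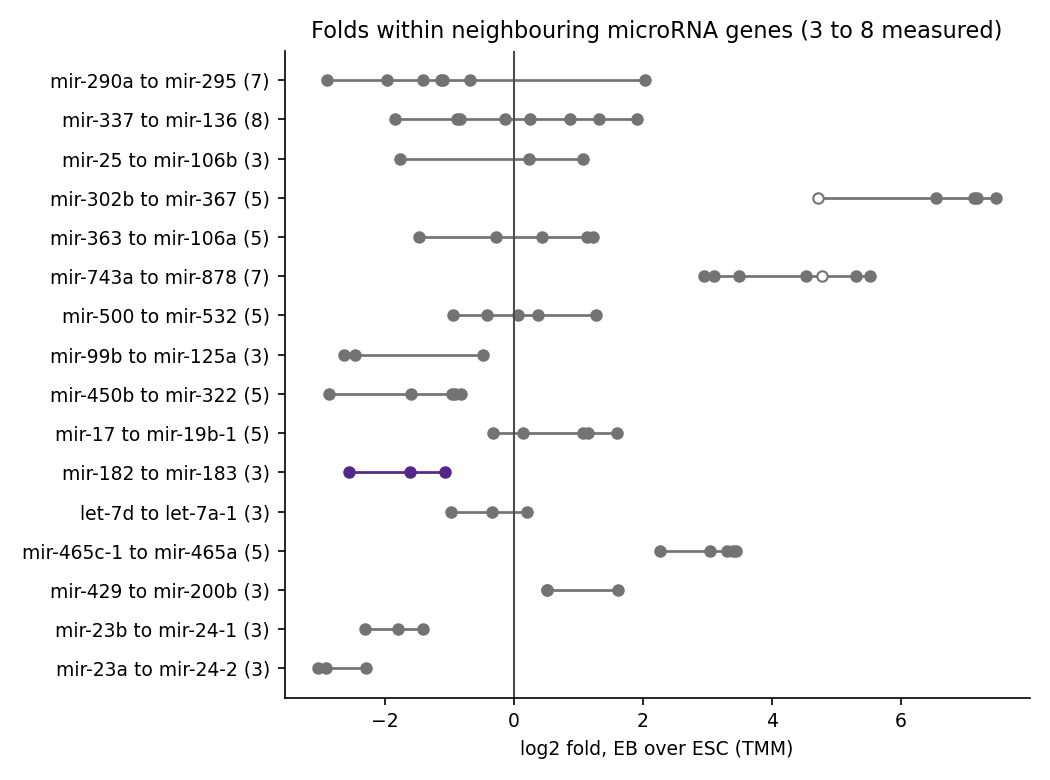
Log2 fold (EB over ESC, TMM-scaled) of each measured entry in groups of neighbouring hairpins with 3 to 8 measured entries, 1 row per group and 1 point per entry, ordered by range. Open points are bounds for entries with 0 counts in 1 library. The miR-183 cluster, in purple, runs from -2.57 to -1.07.

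The size of the folds depended on how the libraries were scaled. Over the 367 measured entries TMM gave a median log2 fold of 0.07, library totals gave 0.35 and the authors' normalized values gave -0.18. With library totals the log2 folds were -2.28 for mir-182, -1.33 for mir-96 and -0.78 for mir-183, and the share of measured entries lower by 2-fold or more was 26.4%. In the authors' normalized values, where that share was 31.6%, mir-182 alone of the 3 was, at -1.99, and mir-96 and mir-183 were at -0.68 and -0.60. Relative to the median of measured entries, mir-182, mir-96 and mir-183 lay at -2.63, -1.68 and -1.13 with TMM or library totals, and at -1.81, -0.50 and -0.42 in the authors' normalized values. A scaling factor per library shifts every fold alike, so TMM and library totals were bound to give the same values here. The normalized values themselves were 1968 in both EB columns and 7842 in both ESC columns for mir-182. They were 2104 and 2222 in the EB columns and 3287 in both ESC columns for mir-183. All 3 entries were lower in EBs under every scaling tried, and mir-182 was at least 2-fold lower under each. The share of measured entries that low was 31.6% with the size factors of DESeq2, 27% with totals that leave out 8 stem cell entries, the 6 above with mir-291b and mir-292b, and 33.5% with TMM over all entries.

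**Figure D4:**
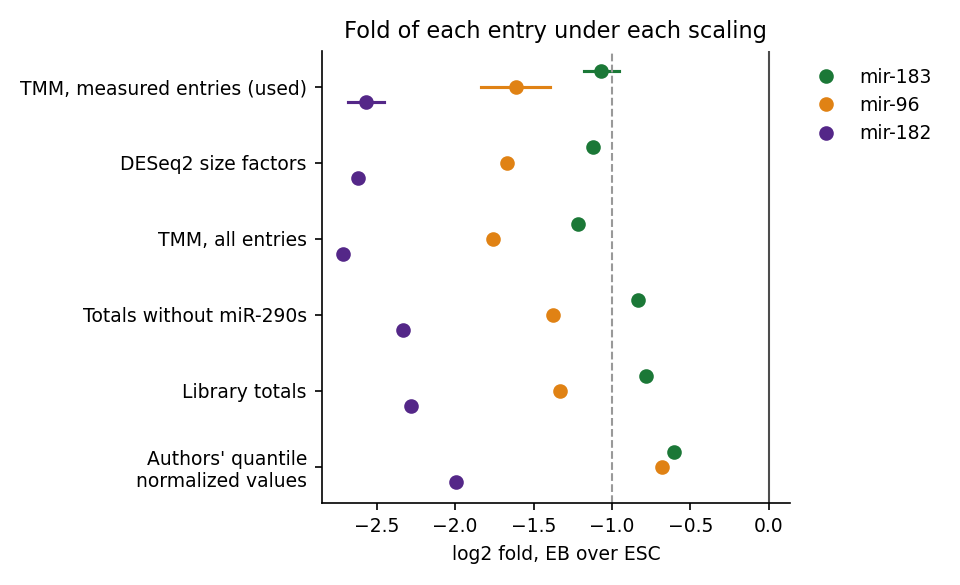
Log2 fold (EB over ESC) of the 3 entries under 6 scalings, with the 95% counting interval drawn for the scaling used in the text. The dashed line marks a 2-fold difference, and mir-182 lies below it in every row, from -2.72 to -1.99.

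The miR-200 family, known to keep cells epithelial by repressing ZEB1 and ZEB2, was set beside the cluster because both are described from epithelia. Its 5 entries had 798 and 820 counts together in the EB columns, against 1745 and 1757 counts in the ESC columns. The family's TMM-scaled sum was 1.52-fold higher in EBs (1.40 to 1.65), where the cluster's was 3.80-fold lower. None of the 5 was at least 2-fold lower and 1 was at least 2-fold higher, where 33.5% of measured entries were. In the authors' normalized values 3 were at least 2-fold higher, where 28.9% of measured entries were, and mir-200a went the other way, at a log2 fold of -0.15 there and 0.52 with TMM. The entry higher with TMM, mir-429, had 157 and 161 EB counts and 169 and 173 ESC counts, a log2 fold of 1.61 (1.29 to 1.93). The most abundant of the family, mir-200c, had 270 and 284 EB counts and 780 and 772 ESC counts, a log2 fold of 0.23 (0.03 to 0.43).

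The ratio of the cluster's counts to those of the miR-200 family was 1.97 in EBs and 11.4 in ESCs, 5.78-fold lower in EBs (5.23 to 6.37). This ratio is also free of the scaling between libraries, so the cluster and the miR-200 family differed from each other between these libraries beyond counting error. Their order stayed the same, with more reads of the miR-183 cluster in both.

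A list of 13 entries of neural and sensory microRNAs was compared because the cluster is best known from sensory cells. It was chosen with earlier results of these data known. Of its 12 measured entries, 11 were at least 2-fold lower in EBs and none at least 2-fold higher, where 30.2% of all measured entries were lower and 33.5% higher by that mark, with a median log2 fold of -2.08 beside 0.07 over all measured entries. Several entries are copies that give the same mature microRNA, so the 12 come to 6 microRNAs. The list does not hold every microRNA known from neurons, and its counts hold for the listed entries alone. Left out were, for example, mir-218-1 and mir-218-2, at log2 folds of 2.55 and 2.59, mir-138-1 at -0.35 and mir-129-1 at -2.15. The last rests on a mean of 2.5 EB counts, and these examples were picked with their values known. The neuron-enriched miR-124, in its copy mir-124-1, had 84 and 78 EB counts and 1685 and 1678 ESC counts, a log2 fold of -2.66 (-3.0 to -2.34). The entry mir-211, known from pigment cells and retinal pigment epithelium, had 1 count in both EB columns and 73 in both ESC columns. At 1 EB count its ratio, 22.2-fold lower, had an interval of 3.86 to 888. The unmeasured entry, mir-204, which is also known from retinal pigment epithelium, had 0 EB counts and 7 ESC counts, too few for any difference to be seen at the EB depth. The log2 folds of mir-182 and of the miR-124 copies, at -2.57 and at -2.73 to -2.64, had intervals that overlap.

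**Figure D5:**
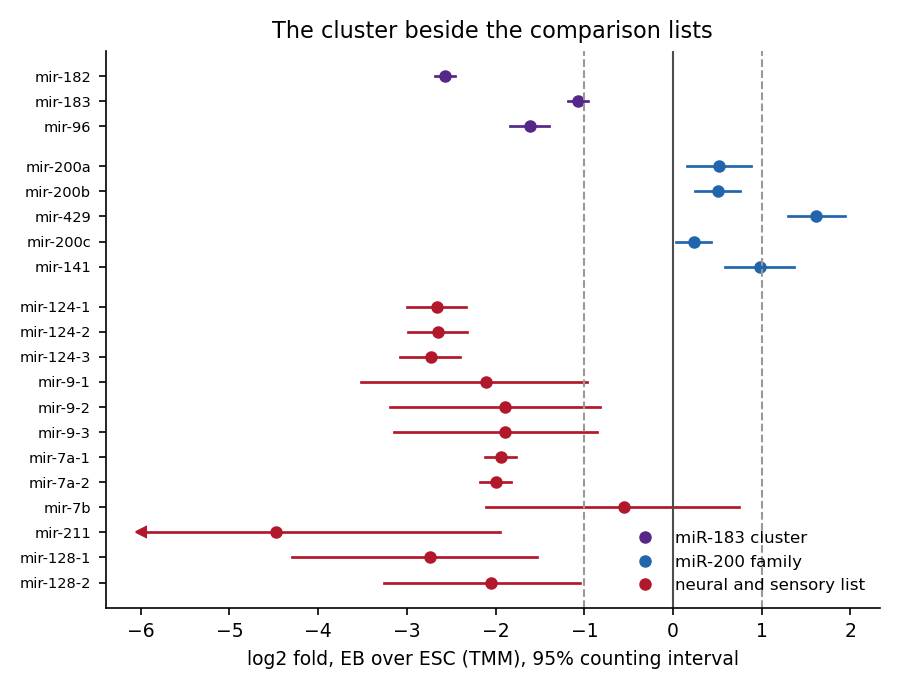
Log2 fold (EB over ESC, TMM-scaled) of the measured entries of the miR-183 cluster, the miR-200 family and the neural and sensory list, with 95% counting intervals; dashed lines mark 2-fold and an arrow an interval that runs off the axis. The 3 cluster entries lie at -2.57 to -1.07 and the 5 miR-200 entries at 0.23 to 1.61, although mir-200a was at -0.15 in the authors' normalized values.

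Seeds close to those of the cluster were looked for among the 513 entries whose name matched a mature sequence in the reference table. None outside the cluster had the same seed as the 5′ arm of a member. A seed 1 base away was found in 12 entries, 11 of them measured, of which 5 were at least 2-fold lower and 2 at least 2-fold higher, beside 30.2% and 33.5% of all measured entries. With 11 entries these counts show nothing particular to near seeds. Most were near the seed of miR-183-5p. Among them mir-425 had a log2 fold of -2.30 (-2.54 to -2.07), mir-25 of -1.77 (-2.03 to -1.53) and mir-92a-1 of -0.72 (-0.86 to -0.58). The higher ones were mir-489, with a mean of 239 counts in EBs and 8 in ESCs, and mir-367, with 24 in EBs and 0 in ESCs. These examples were picked after their values were seen.

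The entries with the folds nearest to those of the members were found among 310 measured entries outside the cluster with a mean of at least 50 CPM, by the smallest difference in log2 fold between the 2 libraries. For mir-182 they were mir-30b, mir-125a and mir-124-2, with log2 folds of -2.51, -2.64 and -2.64. Those nearest to mir-96 were mir-30d, mir-495 and mir-542, at -1.61, -1.61 and -1.60. Nearest to mir-183 were mir-350, mir-195a and mir-652, at -1.06, -1.05 and -1.04, of which mir-350 rests on 7 counts in both EB columns. With 2 libraries, likeness of pattern means no more than a fold of like size.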

How the data were processed

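Small RNA of 4 samples was analysed from 1 table deposited by the authors. Its original counts per microRNA entry were deposited as whole numbers with no normalization, per the file headers. The normalized signal deposited by the authors had identical sorted values in every column, as after quantile normalization. Libraries were made by PCR with an Ion Total RNA-Seq kit, per the labels' protocols, and no molecular identifiers are described, so intervals cover counting error only. Aligner, counting tool, genome build and microRNA release: not given in the sources used here.

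Columns were matched to samples by group and order number. Counts from the mir-664 row on were moved up by 1 row. The displaced end left mir-99b without counts, and of 7280 candidate sets 1 gave back all 626 normalized values when quantile normalization was repeated. It was used for mir-99b.

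Folds are ratios of mean counts after TMM scaling (edgeR 4.0.16, R 4.3.3) over 367 measured entries, those that passed filterByExpr at a minimum count of 10 and a minimum total of 15. Their intervals are exact conditional binomial ones at 95%. Shares have exact Clopper-Pearson intervals and ratios of 2 entries exact conditional odds ratio intervals. An entry with 0 counts was set to a floor of 3 where this kept its direction. Size factors of DESeq2 1.42.0 were an alternative. Other work used scipy 1.17.1, numpy 2.4.6 and pandas 2.3.3 under Python 3.11.15, and matplotlib 3.10.9 for figures. The fold calculation was tested on simulated counts with sampling noise only. Interval coverage was taken after the median offset from the true folds was removed, so it does not cover error in the scaling between libraries.

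No test across samples was made, since the columns of each group, compared over the 344 EB and 402 ESC entries whose 2 columns summed to 10 counts or more, differed by less than counting error. Whether they come from separate cultures is not stated. Named entries were all 3 members, the members' comparison lists, neighbouring hairpins, entries with near seeds, and the 3 entries nearest in log2 fold to each member. Of the 626 entries, 603 were placed in GENCODE release M21, 590 of them by their own name. Members and lists were chosen with earlier results of these data known.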

Additional observations from a re-analysis of the deposited data

How the results depend on the processing

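All 3 entries and their sum stayed lower in EBs under each of 10 alternatives. At least 2-fold lower were mir-182 in all 10, mir-96 in 8 and mir-183 in 7. The 10 include leaving out each column in turn, though the 2 columns of a group differed by less than counting error. They also include the counts as deposited, which leave mir-182 and mir-183 unchanged and give mir-96 another entry's counts. Neither kind tests the direction or the 2-fold mark, so only the alternative scalings bear on them. Among those, mir-183 was at least 2-fold lower with DESeq2 size factors, at -1.12, and with TMM over all entries. It was not with library totals, with totals that leave out 8 entries or in the authors' values. Of these scalings mir-96 missed the mark in the authors' values alone. The log2 folds of mir-182, mir-183, mir-96 and the sum were -2.28, -0.78, -1.33 and -1.64 with library totals. They were -2.33, -0.83, -1.38 and -1.69 with totals that leave out 8 miR-290 to miR-295 entries, and -1.99, -0.60, -0.68 and -1.34 in the authors' quantile-normalized values. With TMM over all entries they were -2.72 for mir-182, -1.22 for mir-183 and -2.08 for the sum. Leaving out 1 column at a time gave -2.62 to -2.51, -1.11 to -1.02, -1.65 to -1.57 and -1.97 to -1.88 for mir-182, mir-183, mir-96 and the sum. Because the 2 columns of a group differed by less than counting error, these ranges were bound to be narrow and say nothing about replicates.

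With the counts left as deposited, where the mir-96 row holds another entry's counts, mir-96 had a log2 fold of -0.55, the log2 change of mir-182 against mir-96 was -2.01, that of mir-96 against mir-183 turned to 0.51, and the share of mir-182 in the cluster was 46.7% in EBs and 71.3% in ESCs. In the quantile-normalized values the log2 change of mir-182 against mir-96 was -1.31, that of mir-96 against mir-183 was -0.078, and the share of mir-182 in ESCs was 64.0%; the cause was not tested. No paired analysis was possible because each group was counted as 1 sample and the results come from no test.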
